A study of Oryza sativa with 16 samples.

Results

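The heat time course sets the open chromatin of rice seedlings after 3 h of heat against that after 30 min of heat. Its members are the 91083 peaks of the 3 h list and the 108147 peaks of the 30 min list, together 199230 of the 695463 peaks in the 7 lists of the series. Peaks of the 2 lists were matched wherever they shared at least 1 bp. The seedlings of both groups were 14-day-old, unmodified plants of the Japonica cultivar Nipponbare, raised at 28 °C with 16 h of light and 8 h of dark and then moved to 42 °C for 3 h or for 30 min. Each group had 2 replicates. Control seedlings stayed at 28 °C, and other seedlings received cold at 4 °C for 12 h or 24 h, or NaCl at 250 mM for 2 h or 6 h. These other lists were used here only to place the heat peaks. Whole seedlings were taken, so leaf and other tissues were mixed in each library, and a peak open in a few cells cannot be told apart from a peak weakly open in all of them.

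FAIRE-seq (formaldehyde-assisted isolation of regulatory elements) crosslinks protein to DNA, shears the chromatin and sequences the DNA that stays free of protein, which comes mainly from promoters, enhancers and other stretches with few nucleosomes. Plants respond to heat through heat shock transcription factors, which bind short elements in the promoters of chaperone genes, and in Drosophila such genes lose nucleosomes when heated. A broad peak of MACS2 joins neighbouring enriched stretches into a single region, so that its width takes in weak flanks as well as the strongest part, and its fold enrichment is an average over the whole region. The files name no gene, and a gene annotation on the build of the files was not used here, so the results are given as regions.

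The authors deposited a single peak list for each time point, covering both replicates, and the text of the methods does not say how the replicates were combined. No value below therefore has a replicate error, no p-value was computed, and the 95% Wilson intervals of shares cover counting error only. The depth behind each peak is unknown from the lists. The study's mapping summary lists more mapped reads for the shorter heat treatment than for the longer one, and the part of this difference in the results was not tested.

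Peaks covered 69.9 Mb at 3 h and 95.2 Mb at 30 min, a ratio of 0.734. The median peak was 610 bp wide at 3 h, with quartiles of 354 and 1008 bp, against 677 bp at 30 min, with quartiles of 368 and 1178 bp. The fold enrichment given by MACS2 ran the other way. Its median was 2.48 at 3 h and 2.15 at 30 min, with upper quartiles of 3.11 and 2.53. The 3 h list thus held fewer and narrower peaks, whose average enrichment was higher.

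Of the 3 h peaks, 4369 (4.80%, 95% interval 4.66% to 4.94%) were new, that is, they overlapped no 30 min peak. Of the 30 min peaks, 25748 (23.8%, 95% interval 23.6% to 24.1%) had closed, with no 3 h peak over them, and 82399 (76.2%) persisted. Closed peaks outnumbered new peaks on each of the 12 chromosomes. The lists differ in length, and this matters most for the new peaks. The 30 min list was therefore cut to its 91083 most enriched peaks, the length of the whole 3 h list. With these equal lists, 13.5% of the 3 h peaks were new and 18.3% of the 30 min peaks had closed. The 3 h list stayed whole, so no kept 30 min peak changed its class. The closed share differs only because the least enriched 30 min peaks were left out. The class limit itself touched few peaks. Only 50 of the 30 min peaks were kept by an overlap of 50 bp or less, and 24 closed peaks lay under 100 bp from a 3 h peak. The distance to the nearest peak of the other time point had a median of 1039 bp for new peaks and 1088 bp for closed peaks. The distance for other positions of the genome was not computed, so these medians show no trait of new or closed peaks. New peaks lay at least 10 kb from any 30 min peak in 138 cases, and 120 closed peaks lay that far from any 3 h peak.

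The peaks without a partner were narrow. New peaks were 267 bp wide in the median, and the 3 h peaks with a partner 635 bp. Closed peaks were 307 bp wide in the median, and the persisting 30 min peaks 838 bp. Among peaks of at most 250 bp, 20.5% of the 3 h peaks were new and 75.3% of the 30 min peaks had closed. Above 600 and up to 1000 bp these shares were 1.45% and 14.6%. Above 1000 and up to 2000 bp, 50 of 19609 at 3 h were new and 1007 of 26352 at 30 min had closed. Above 2000 bp, none of the 3477 peaks at 3 h was new, with an upper 95% limit of 0.110%, and 40 of the 8038 peaks at 30 min had closed. The plot of the shares by width shows the closed share above the new share in every width class. A wider peak has more bases at which an overlap of 1 bp can occur. The shares that width alone would give were not computed, and its part in the trend was not tested.

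**Figure D1:**
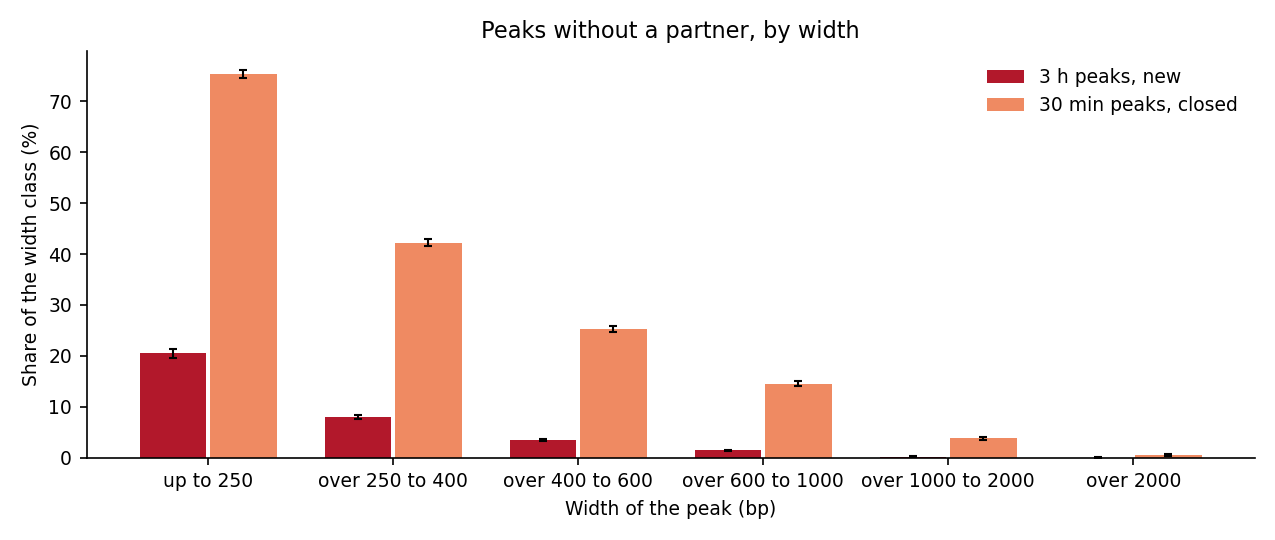
Share of 3 h peaks that were new and of 30 min peaks that had closed, in percent of the peaks of each width class, with 95% Wilson intervals as error bars. Among the narrowest peaks 20.5% were new and 75.3% had closed, and both shares are smaller in each wider class.

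Weakly enriched peaks closed most often, and width and enrichment each went with closure when the other was held. New peaks made up 9.70% of the least enriched 25% of the 3 h peaks and 0.224% of the most enriched 25%. Of the 30 min peaks, 48.1% of the least enriched 25% and 3.69% of the most enriched 25% had closed. Within the 30 min peaks of over 250 to 400 bp, 62.1% of those in the lowest 25% of the list had closed and 15.6% of those in the highest 25%. For peaks of over 600 to 1000 bp the shares were 40.3% and 0.402%. Among the most enriched 10% of each list, 4 of 9109 peaks at 3 h were new and 98 of 10815 peaks at 30 min had closed. Of the 20000 most enriched peaks, set against the whole other list, 0.170% at 3 h were new and 2.29% at 30 min had closed.

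To follow the peaks that stayed open, matched pairs were formed from a 3 h peak and a 30 min peak that overlapped each other and no other peak. There were 75125 such pairs. Their median width was 638 bp at 3 h and 796 bp at 30 min, and the median ratio of widths, 3 h over 30 min, was 0.898 with quartiles of 0.711 and 0.995. The 3 h peak was the smaller in 76.0% of the pairs. A pair was called narrower where the 3 h peak had at most 0.8 times the width of the 30 min peak, and wider where the 30 min peak had at most 0.8 times the width of the 3 h peak. By this rule 26052 pairs (34.7%, 95% interval 34.3% to 35.0%) were narrower and 4506 (6.00%, 95% interval 5.83% to 6.17%) were wider. With a limit of 0.5 in place of 0.8, the shares were 10.6% and 1.34%. Widths of the pairs at both times were correlated across peaks, with a Spearman rho of 0.806 over the 75125 pairs, which come from the same libraries and are no independent replicates.

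**Figure D2:**
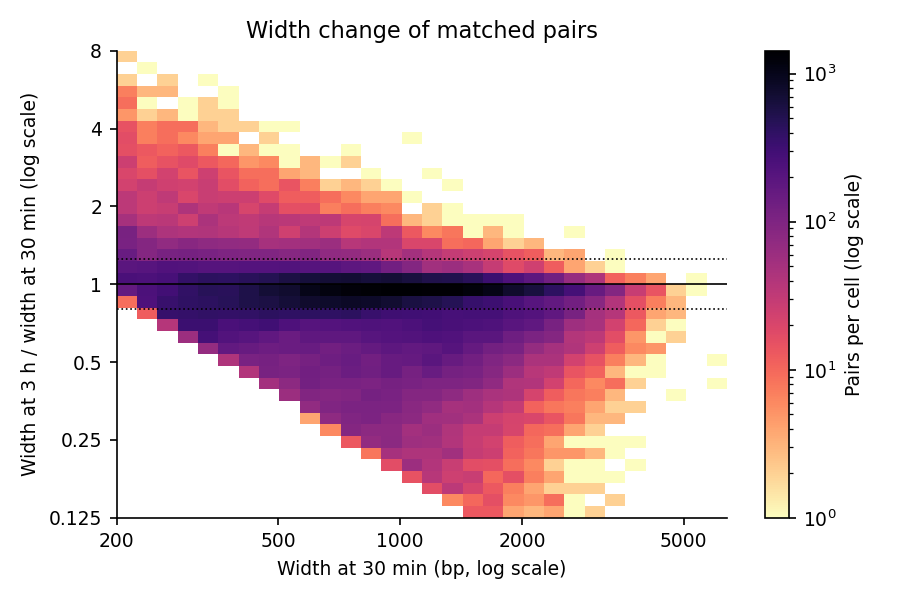
Ratio of the width at 3 h to the width at 30 min (log scale) against the width at 30 min (log scale) for 75125 matched pairs, with the number of pairs in each cell as colour. The solid line marks equal width and the dotted lines the limits for narrower and wider pairs. The mass of pairs lies just under the solid line, at a median ratio of 0.898.

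Narrower pairs were found in every width class above 250 bp. The share of narrower pairs was 29.2% for pairs of over 250 to 400 bp at 30 min, 34.2% for over 600 to 1000 bp, 40.7% for over 1000 to 2000 bp and 41.7% above 2000 bp. The wider pairs were concentrated among narrow peaks, with 39.3% of the pairs of at most 250 bp and 0.474% of those above 2000 bp. A pair of at most 250 bp at 30 min could hardly be called narrower, since no peak of either list was under 200 bp. In this class the median ratio was 1.15, and in the 5 wider classes it lay between 0.852 and 0.921. The classes were set by the width at 30 min, which is also the denominator of the ratio. Together with the floor of 200 bp, this can favour wider pairs among narrow peaks and narrower pairs among wide peaks. Its part in the trend over the classes was not tested.

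Loss was shared between the borders of the peaks. Over all pairs the median inward shift was 27 bp at the border of lower coordinate and 27 bp at the border of higher coordinate. Both borders had moved inwards in 49.1% of the pairs, a single border in 38.6% and neither in 12.3%. The narrower pairs, chosen for their loss of width, lost a median of 375 bp, and both borders had moved inwards in 75.3% of them. Even so, the loss was uneven, since in 66.8% of the narrower pairs at least 80% of the net loss came from a single border. Neither border was favoured, with median shifts of 101 and 98 bp.

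Other persisting peaks broke up or joined. At 3 h, 1128 peaks (1.24%) spanned 2 or more 30 min peaks, and 5152 of the 30 min peaks (4.76%) were covered by 2 or more separate 3 h peaks. The peaks that broke up were wide, with a median of 2106 bp, and 297 of them gave 3 or more pieces. The most divided peak lay on Chr6:22085871-22090433 and was 4563 bp wide with a fold enrichment of 1.68 at 30 min. At 3 h it was represented by 5 peaks of 216 to 664 bp, which had fold enrichments of 2.00 to 2.55 and added up to 1922 bp.

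With any overlap counted as persistence, trimming of persisting peaks took away more bases than closure did. Of the 3 h bases, 92.5% were also under a 30 min peak, and of the 30 min bases, 67.9% were also under a 3 h peak. The 30.6 Mb covered at 30 min only were made up of 19.8 Mb (64.9%) inside persisting peaks and 10.7 Mb (35.1%) in closed peaks. Matched pairs accounted for 15.2 Mb of the lost bases and peaks that broke up for 4.39 Mb. The 5.26 Mb covered at 3 h only were made up of 3.78 Mb (72.0%) next to 30 min peaks and 1.47 Mb (28.0%) in new peaks. This split depends on what counts as closed. When a 30 min peak persisted only with at least 50% of its bases covered at 3 h, 39.6% of the lost bases were inside persisting peaks, so that closure took away the larger part.

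Most matched pairs had a higher fold enrichment at 3 h. The median fold enrichment of the matched pairs was 2.55 at 3 h and 2.28 at 30 min, and the ratio within a pair had a median of 1.16 with quartiles of 0.947 and 1.32. The 3 h value was the higher in 52306 pairs (69.6%) and the lower in 22819 pairs (30.4%). Among the narrower pairs the ratio had a pair of modes, at 0.881 and 1.36, with a trough at 1.04. The pairs of similar width and the wider pairs both had a main mode at 1.23. These positions are bin centres and shift with the choice of bins. A higher value at 3 h was also seen without a change in width. The median ratio was 1.19 for the 17073 pairs whose width changed by at most 5%, and 83.1% of these had the higher value at 3 h. Fold enrichment was computed by MACS2 within each list, and the part of depth and background in the ratio was not tested.

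Pairs with a lower and with a higher value at 3 h were set apart at a ratio of 1 after the ratios had been seen, and they differed in width. Pairs with a lower value at 3 h were 446 bp wide at 3 h and 634 bp at 30 min in the median, with a median width ratio of 0.812. Pairs with a higher value were 734 bp wide at 3 h and 883 bp at 30 min, with a median width ratio of 0.933. Their median fold enrichment follows from the split and is given as a description. It was 1.95 at 3 h and 2.34 at 30 min for the pairs that lost, and 2.88 at 3 h and 2.26 at 30 min for the pairs that gained. The list of salt 6 h, which played no part in the split, held a peak at 66.6% of the pairs that lost and at 97.4% of those that gained. The salt 2 h list held 87.6% and 98.3%, the control list 91.4% and 97.5%, the cold 24 h list 95.6% and 98.6%, and the cold 12 h list 99.0% and 97.2%. The pairs that lost were narrower, and the lists differed in length. The part of width and list length in these shares was not tested. The share of pairs that gained ran from 65.3% on chromosome 11 to 71.5% on chromosome 3.

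Ranks of enrichment moved more than widths did, with a Spearman rho of 0.595 for fold enrichment across the 75125 pairs. There were 5303 pairs in the most enriched 10% of both lists. By contrast, 95 pairs were in the top 10% at 3 h and in the lower 50% at 30 min, and 1333 pairs were in the top 10% at 30 min and in the lower 50% at 3 h. The 95 pairs were 423 bp wide at 3 h and 756 bp at 30 min in the median. The 1333 pairs were narrower at 3 h as well, with medians of 385 bp at 3 h and 479 bp at 30 min.

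**Figure D3:**
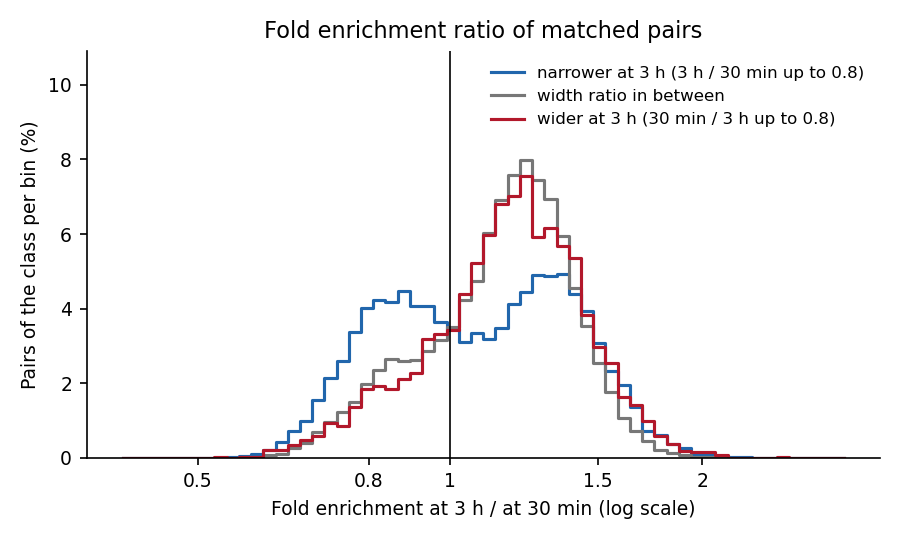
Distribution of the ratio of fold enrichment at 3 h to that at 30 min (log scale) in matched pairs, in percent of the pairs of each class, for pairs that were narrower, of similar width or wider at 3 h. The medians are 1.09, 1.18 and 1.19, and the narrower pairs show modes at 0.881 and 1.36 on either side of equal enrichment.

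Covered length, closure and narrowing changed little from chromosome to chromosome. The ratio of covered length, 3 h over 30 min, was between 0.727 on chromosome 6 and 0.743 on chromosome 10, with an SD of 0.00512 over the 12 chromosomes. This SD is no replicate error, since all chromosomes come from the same libraries. The closed share ran from 23.1% on chromosome 4 to 25.1% on chromosome 12, and the 95% interval held the genome-wide 23.8% on 11 chromosomes. The median width ratio of the matched pairs lay between 0.890 on chromosome 3 and 0.908 on chromosome 10, and the share of narrower pairs between 33.2% and 35.7%. Other shares varied more. The share of 30 min peaks that broke up lay between 4.02% on chromosome 11 and 5.45% on chromosome 4. Wider pairs made up 5.14% (95% interval 4.71% to 5.61%) on chromosome 1 and 6.91% (95% interval 6.27% to 7.60%) on chromosome 8. New peaks were also less even. They made up 3.81% of the 3 h peaks on chromosome 3, 3.98% on chromosome 1 and 4.25% on chromosome 2, with intervals below the genome-wide 4.80%. They made up 6.03% on chromosome 11, 5.53% on chromosome 12, 5.41% on chromosome 4 and 5.34% on chromosome 5, with intervals above it.

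**Figure D4:**
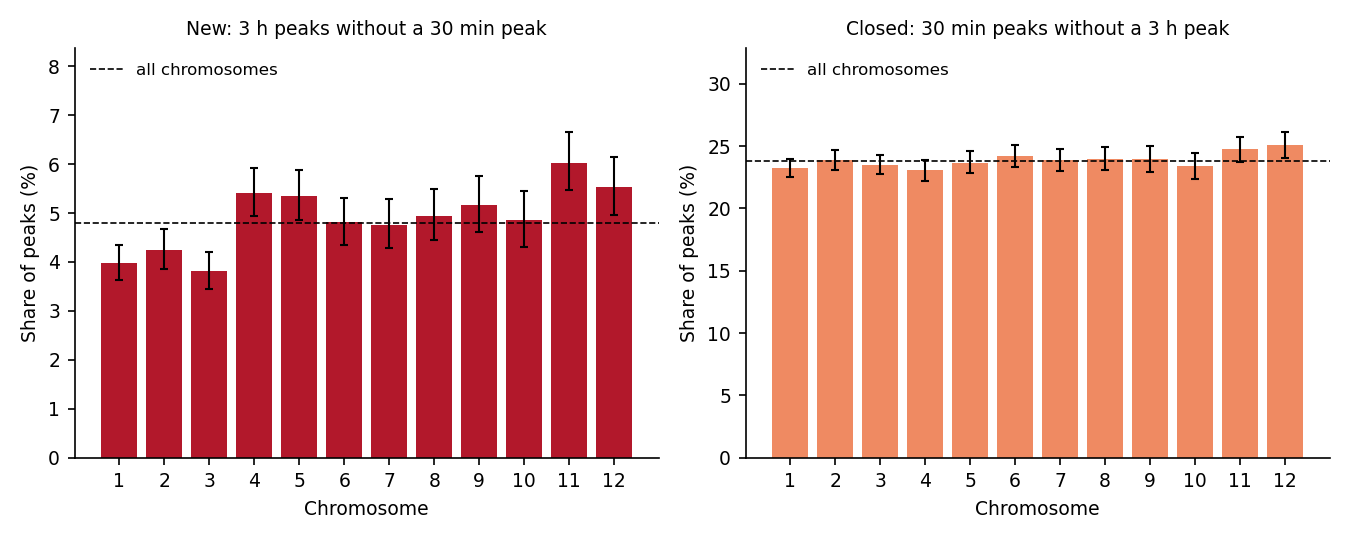
Share of 3 h peaks that were new and share of 30 min peaks that had closed on each of the 12 chromosomes, in percent with 95% Wilson intervals as error bars; dashed lines give the genome-wide shares of 4.80% and 23.8%. The new share runs from 3.81% to 6.03%, and the closed share from 23.1% to 25.1%.

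Within chromosomes, the new share was larger where peaks were sparse. In 378 windows of 1 Mb with at least 50 peaks in each list, the new share ran from 1.03% to 15.3% with a median of 4.67%, and the closed share from 15.4% to 33.1% with a median of 23.5%. Every one of these windows had more closed than new peaks and a median width ratio under 1. The 30 min list was the longer, which can favour closed over new peaks in number, and its part here was not tested. Across the windows, the number of 30 min peaks had a Spearman rho of -0.516 with the new share and of -0.0555 with the closed share. Both shares use the same peaks as the counts, and the windows share the same libraries. In a window with fewer 30 min peaks, a 3 h peak has fewer possible partners. The part of this in the new share was not tested. In the 25% of windows with the fewest peaks, 6.90% of the 3 h peaks were new and 24.5% of the 30 min peaks had closed. In the 25% with the most peaks these shares were 3.56% and 24.1%. When each chromosome was cut into 10 equal stretches, the new share was highest in the fourth stretch, at 6.59%, and lowest in the tenth, at 3.78%. The closed share was highest in the fifth stretch, at 26.0%, and lowest in the eighth, at 22.6%.

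Some windows stood out, and they were chosen after their values had been seen. The new share of 15.3% belonged to chromosome 6 between 18 and 19 Mb, with 19 new peaks of 124. The same window had one of the highest median width ratios, 0.964. Chromosome 11 between 11 and 13 Mb held the windows with the highest closed shares, with 100 of 302 and 45 of 136 peaks, and its second window also had the second highest new share, 12.7%. The lowest closed share, 15.4%, was on chromosome 11 between 27 and 28 Mb. The smallest median width ratio, 0.787, was on chromosome 4 between 9 and 10 Mb, where the covered length ratio was 0.639. The largest, 0.975, was also on chromosome 4, between 3 and 4 Mb.

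Most new and closed peaks stood alone in their list, with neighbours of the other class. This held for 82.2% of the new peaks and 59.8% of the closed peaks, and runs of 5 or more numbered 2 for new peaks and 57 for closed peaks. These counts depend on the size of each class, 4.80% of the 3 h peaks and 23.8% of the 30 min peaks. The counts that class size alone would give were not computed. Set against the overall share of each class, new peaks followed one another more often than closed peaks did. After a new peak, the next 3 h peak was new in 9.68% of cases (95% interval 8.84% to 10.6%), against 4.55% after a peak that was not new. After a closed peak, the next 30 min peak had closed in 22.7% of cases (95% interval 22.1% to 23.2%), against 24.2% after a persisting peak. The longest run of new peaks had 8 members of 205 to 383 bp on Chr6:18542889-18668312, a stretch of 125.4 kb, and 2 of them overlapped a control peak. The longest run of closed peaks also had 8 members, of 202 to 664 bp, but lay within 17.4 kb on Chr11:8657753-8675184, and 7 of them overlapped a control peak.

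The control list shows which of these peaks were open without stress. Of the new peaks, 35.1% (1535) overlapped a control peak, against 95.6% of the other 3 h peaks, and of the closed peaks, 53.5% (13777) did, against 95.8% of the persisting peaks. New and closed peaks were also narrower and less enriched in the median than the peaks they are set against. Peaks of like width and enrichment were not compared. The order of new and closed peaks turned when the 30 min list was cut to 91083 peaks, with the 3 h and control lists left whole. In that setting 68.4% of the new and 57.5% of the closed peaks had a control peak. The new peaks then numbered 12273, since they took in 3 h peaks whose 30 min partner had been cut. The merged control, 30 min and 3 h lists gave 112939 regions. Of these, 77168 (68.3%) had a peak at all 3 stages and 13119 (11.6%) in the control and at 30 min only. A further 11971 (10.6%) had a peak at 30 min only, and 3167 in the control only. The regions absent from the control but open at both heat times numbered 3309 (2.93%). In 2834 regions (2.51%) a peak was found at 3 h only, and in 1371 (1.21%) it was present in the control, absent at 30 min and present again at 3 h. Closed peaks with a control peak were wider than those without, with medians of 354 and 264 bp, while new peaks with and without a control peak had medians of 273 and 262.5 bp.

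The other stress lists differed in which of these peaks they held. New peaks were found most often in the salt 6 h list (67.3%) and least often in the cold 12 h list (22.8%). For closed peaks the order was the reverse, with 23.8% in the salt 6 h list and 75.6% in the cold 12 h list. The cold 24 h list held 48.6% of the new and 58.2% of the closed peaks, and the salt 2 h list 56.7% of the new and 45.7% of the closed peaks. These shares were all below those of the peaks with a partner, which were wider in the median. The salt 6 h list held 87.8% of the 3 h peaks with a partner and 88.6% of the persisting 30 min peaks, and the cold 12 h list held 97.8% of both. Longer lists can hold more of any set of peaks. The salt 6 h list was the shortest and the cold 12 h list the longest of the series, so that over the 4 cold and salt lists the new peaks ran against list length and the closed peaks along with it. No other list held a peak at 668 new peaks (15.3%) and 2584 closed peaks. A peak in all 5 other lists was found for 365 new peaks (8.35%) and for 4372 closed peaks (17.0%), against 85.2% of the 3 h peaks with a partner and 86.1% of the persisting 30 min peaks.

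**Figure D5:**
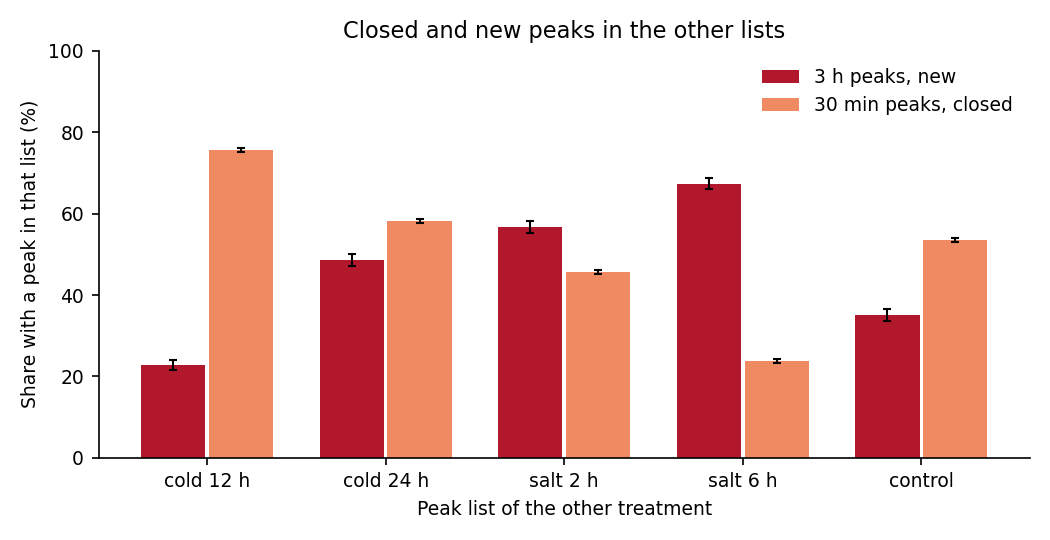
Share of the new 3 h peaks and of the closed 30 min peaks that overlapped a peak of the cold, salt and control lists, in percent with 95% Wilson intervals as error bars. New peaks rank from 22.8% in cold 12 h to 67.3% in salt 6 h, closed peaks from 75.6% in cold 12 h to 23.8% in salt 6 h.

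The most enriched closed peaks were short. All 98 closed peaks in the most enriched 10% of the 30 min list were between 234 and 407 bp wide. Of these, 89 (90.8%) overlapped a control peak, against 85.7% of all 30 min peaks and 99.8% of the persisting peaks in the same 10%. A peak in all 5 other lists was found for 46 (46.9%) of them, against 95.8% of those persisting peaks. The median width was 275 bp for these closed peaks and 810 bp for those persisting peaks. The strongest of them lay on Chr7:3635669-3636036, was 368 bp wide and had a fold enrichment of 3.65 and a −log10 q of 21.7, higher than 98.5% of the 30 min list. The next lay on Chr7:963159-963462 (304 bp, fold enrichment 3.53), Chr8:18552171-18552436 (266 bp, 3.50), Chr8:20646575-20646867 (293 bp, 3.47) and Chr8:12120222-12120486 (265 bp, 3.39). The first 4 were present in the control and in every cold and salt list, and the last in all of these but salt 6 h. Their control peaks were 234 to 308 bp wide, and the nearest 3 h peak was 496 to 922 bp away.

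The strongest new peak stood apart from the others. It lay on Chr11:12122533-12123549, was 1017 bp wide and had a fold enrichment of 4.94 and a −log10 q of 30.5, above 99.0% of the 3 h list. It was 2603 bp from the nearest 30 min peak and had no control, cold 12 h or salt 6 h peak, but the cold 24 h and salt 2 h lists held peaks of 400 and 864 bp there. The next new peaks were short. They lay on Chr3:25784331-25784636 (306 bp, fold enrichment 3.77), Chr12:26250648-26250901 (254 bp, 3.77), Chr11:21941654-21941929 (276 bp, 3.76) and Chr1:33796268-33796587 (320 bp, 3.58). Each of these 4 was also present in the cold 24 h, salt 2 h and salt 6 h lists and absent from cold 12 h, and the one on chromosome 3 overlapped a control peak of 1397 bp.

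The most narrowed pairs left a short remnant of a wide, weakly enriched peak. On chromosome 10, a 3 h peak of 311 bp at 12398451-12398761 stood in place of a 30 min peak of 3890 bp at 12395023-12398912, a ratio of 0.0799, with fold enrichments of 1.67 and 1.91. The control peak there was 3610 bp wide. At the other 4 places the control peaks added up to 500 to 2049 bp, with 500 bp on chromosome 2. The other 4 pairs were 210 to 246 bp wide at 3 h and 2372 to 3033 bp at 30 min, and lay on chromosome 10 at 7360798-7361043 and 6619566-6619779, on chromosome 4 at 3997850-3998059 and on chromosome 2 at 10176521-10176735 (positions at 3 h). Fold enrichment was 1.67 to 1.76 at 3 h and 1.61 to 1.96 at 30 min in these 5 pairs, so that all of them were weak at both times.

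The most widened pairs were the converse. On Chr1:26226400-26228033 a 3 h peak of 1634 bp took in a 30 min peak of 210 bp, a ratio of 7.78, with fold enrichments of 1.79 and 1.61. On Chr4:26883025-26885121 a 3 h peak of 2097 bp had a fold enrichment of 2.39, against 324 bp and 1.67 at 30 min. The other 3 lay on Chr3:18553206-18554791, Chr3:21402008-21403701 and Chr9:3317930-3319674, with widths of 1586 to 1745 bp at 3 h and 205 to 273 bp at 30 min. The control peaks at these 5 places added up to 229 to 705 bp.

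Cold and salt were also sampled at an earlier and a later time, and the same measures were taken there. The closed share was 23.8% for heat, 14.8% for cold (24 h against 12 h) and 14.5% for salt (6 h against 2 h). The lists differed in length, with 108147 earlier and 91083 later peaks for heat, 110010 and 102210 for cold, and 97058 and 87437 for salt. With the least enriched 30 min peaks left out to give equal lists, the closed share of heat was 18.3%. Equal lists were not computed for cold and salt. The median width ratio of matched pairs, later over earlier, was 0.898 for heat, 0.984 for cold and 0.964 for salt, and narrower pairs made up 34.7%, 20.4% and 18.4%. Wider pairs made up 6.00%, 9.99% and 2.59%. On each of the 12 chromosomes the closed share of heat was above, and its width ratio below, those of cold and salt. The new share of heat, 4.80%, lay between 7.10% for cold and 2.70% for salt. The median ratio of fold enrichment in matched pairs, later over earlier, was 1.16 for heat, 1.22 for cold and 1.12 for salt. The ratios of heat were more spread, with an SD of 0.33 on the log2 scale, against 0.20 for cold and 0.17 for salt, and 30.4% of the heat pairs, 5.96% of the cold pairs and 13.6% of the salt pairs had the lower value at the later time. In all 3 time courses between 64.9% and 66.5% of the lost bases were inside persisting peaks. The time points are not the same hours in the 3 treatments, each has a single list, and the differences between treatments were not tested.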

How the data were processed

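FAIRE-seq was performed by the authors on 2 replicates per condition of rice seedlings. Reads were aligned to IRGSP 1.0 with Bowtie2. Reads at organelle insertions, reads with a mapping score under 10 and duplicates were removed, and broad peaks were called with MACS2. By the methods, a peak also needed a read count of at least 1 RPM in each replicate. The deposited fold enrichment is a ratio of pileup to local background, and the −log10 of p and q and the score are also deposited values from MACS2. Fold enrichment was ranked within its own list or compared as a ratio within pairs.

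Overlaps were computed with Python 3.11.15, numpy 2.4.6, pandas 2.3.3 and scipy 1.17.1, and bedtools 2.31.1 gave the same numbers of closed and new peaks. Figures were drawn with matplotlib 3.10.9. The functions were tested on 20000 simulated positions, and all 8 known quantities were recovered. Positions are 1-based. The named regions are the 5 closed and the 5 new peaks of highest fold enrichment, the 5 most narrowed pairs of at least 1000 bp at 30 min, the 5 most widened pairs of at least 1000 bp at 3 h, and the longest runs. Members, measures and rules were chosen with earlier results of these data known. RNA-seq samples and sequences were not analysed here. The reference gene table used another assembly, so no gene was named.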

Additional observations from a re-analysis of the deposited data

How the results depend on the processing

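No paired analysis was possible because each time point has a single list for both replicates, which also kept a replicate from being left out. A share or median was taken as changed when it left its 95% interval, and a ratio of covered length or a share of bases when the change exceeded the SD across the 12 chromosomes. Of 39 alternative values, 34 moved by this measure and 5 did not. An order turned in 2 cases: the larger part of the lost bases lay in closed peaks with 50% coverage, and new peaks had a control peak more often than closed peaks with equal lists. Closed stayed above new on all 12 chromosomes under the 4 settings for which this was counted. With only the peaks of a −log10 q of at least 2, the new share was 5.17% and the closed share 26.0%, narrower and wider pairs made up 33.8% and 5.67%, the median width ratio was 0.902, the covered length ratio 0.719, and 60.0% of the lost bases were inside persisting peaks. With 91083 peaks in both lists, these values were 13.5%, 18.3%, 33.7% and 5.28%, with a covered length ratio of 0.834 and 73.1% of the lost bases, and 68.4% of the new and 57.5% of the closed peaks had a control peak. With at least 50% of a peak covered, the new share was 6.73%, the closed share 33.1%, narrower and wider pairs 27.0% and 4.96%, the median width ratio 0.921, the lost bases inside persisting peaks 39.6%, and 33.5% of the new peaks had a control peak. Among the 20000 most enriched peaks, 0.170% were new and 2.29% had closed, and 50.0% of the new and 80.7% of the closed peaks had a control peak. With no peak of the other list within 500 bp, 4.05% were new and 21.6% had closed, and 55.8% of the closed peaks had a control peak. A limit of 0.5 in place of 0.8 gave 10.6% narrower and 1.34% wider pairs. Groups of linked peaks with summed widths gave 37.7% narrower and 6.20% wider, with a median ratio of 0.884. Cutting the 30 min list shortens the list of possible partners, which can only raise the new share. It adds to the new peaks 3 h peaks that had a partner in the whole list. The 3 h list stayed whole, so the kept 30 min peaks stayed closed or persisting as before. The closed share of 18.3% thus differs only by the 30 min peaks left out. The cause of the remaining changes was not tested.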
